A study of Mus musculus with 7 samples.

Results

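The 8 genes described here, Klf2, Klf3, Klf4, Klf6, Klf7, Klf9, Klf10 and Klf13, encode Krüppel-like factors. They were taken by symbol from a table of 19649 genes measured by RNA sequencing in long-term haematopoietic stem cells of mice, and all 8 were in the table and passed the filter on low values. Mutant libraries came from Calr fl/fl (Calr del52/del52) MxCre mice (n = 3), and wild-type libraries from Calr +/+ MxCre mice (n = 4). Calr encodes calreticulin, a chaperone of the endoplasmic reticulum, and the del52 allele changes its C terminus. Both genotypes carried MxCre, a Cre recombinase under an interferon-responsive promoter that is not restricted to blood cells. Both received pI:pC, a double-stranded RNA that evokes interferon, and no other agent. Cells were collected 14 days after induction began as Sca-1+ Kit+ cells without lineage markers that carried CD150 and lacked CD48. The age and sex of the mice, and whether each library stands for a separate animal, are left unstated by the labels; p-values thus cover the spread among the 7 libraries and nothing wider.

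Krüppel-like factors are transcription factors whose C-terminal zinc fingers bind CACCC elements and GC boxes, while their N-terminal parts recruit activators or repressors. Some members are steady regulators, and others are induced within a short time by growth factors, flow, cytokines or hormones. Klf2 keeps resting lymphocytes and endothelium quiescent, Klf4 is a pluripotency factor that also acts in monocytes, and Klf6 is induced by injury and cytokines in many cell types. Klf10 is an early target of TGF-β, Klf9 a target of glucocorticoid and thyroid hormone receptors, and Klf13 an activator of the chemokine gene Ccl5 in T cells. Klf3 represses transcription through CtBP, and Klf7 is broadly expressed and acts in neurons and blood progenitors.

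Calr itself had 14239, 15724 and 15317 normalized counts in mutant 1 to 3, against 18606, 16639, 15922 and 15965 in wild-type 1 to 4, and need not change in level with this allele. Between 21325340 and 28710304 reads were counted per library. The wild-type libraries fell into pairs: wild-type 3 and 4 differed from wild-type 1 and 2 in 8810 of 16047 genes (limma, adjusted p under 0.05). A normalized count is a gene's read count divided by 1 size factor per library. Wild-type 3 and 4 also stood apart in the slope of expression on exonic length, 0.24 log2 units per doubling of length in each, against -0.18 to 0.01 in the mutant libraries and -0.10 and -0.11 in wild-type 1 and 2. The sample titles of mutant 1 and 2 and wild-type 3 and 4 share a run of numbers that is missing from the other 3 titles (called the title series here). The labels do not say what it stands for. The mutant libraries are therefore set against each wild-type pair as well as against all 4 wild-type libraries. All 10 stem cell markers were measured, and they also moved between the libraries. Limma called 9 of 10 in wild-type 3 and 4 against wild-type 1 and 2, 5 higher (29.6% of all genes) and 4 lower (25.3%). In mutant libraries it called 3 higher (19.7% of all genes) and 4 lower (22.8%) against wild-type 3 and 4. Against wild-type 1 and 2 it called 0 (0.318% of all genes). Of the sorting antigens, Kit had 4736, 6677 and 2976 normalized counts in mutant 1 to 3, against 4150, 4068, 26511 and 25305 in wild-type 1 to 4 (log2 -2.51 against wild-type 3 and 4, limma adjusted p = 0.000807). Ly6a, the gene of Sca-1, ran the other way (log2 1.10, limma adjusted p = 0.00370), as did Slamf1, the gene of CD150 (log2 0.62, limma adjusted p = 0.0145). The part of these differences in the values of the 8 genes was not tested. Because the libraries are bulk samples, fewer cells of a type and less RNA per cell cannot be told apart, and because they are unstranded, reads from overlapping or antisense genes cannot be told apart either.

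The upstream sequences of Klf2, Klf4 and Klf6 are shown because these genes moved together over the libraries. Each is 220 bases long, from 250 to 31 bases before the RefSeq start site (GRCm38.p6), written 5′ to 3′ on the gene's strand. Capitals mark the GC box (GGGCGG on either strand), the CCAAT box (CCAAT on either strand) and, in Klf2, a MEF2 site.
Klf2 (chr8:72318812-72319031, + strand): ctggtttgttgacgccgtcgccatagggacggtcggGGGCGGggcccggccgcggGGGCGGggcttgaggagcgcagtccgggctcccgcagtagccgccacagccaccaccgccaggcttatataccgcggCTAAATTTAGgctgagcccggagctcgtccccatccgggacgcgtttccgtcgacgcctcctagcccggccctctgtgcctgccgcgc
Klf4 (chr4:55532506-55532725, − strand): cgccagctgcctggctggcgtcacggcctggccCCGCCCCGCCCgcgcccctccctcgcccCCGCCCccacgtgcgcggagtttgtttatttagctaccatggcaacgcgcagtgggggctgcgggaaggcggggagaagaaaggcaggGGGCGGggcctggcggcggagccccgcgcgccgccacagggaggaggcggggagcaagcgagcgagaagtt
Klf6 (chr13:5861239-5861458, + strand): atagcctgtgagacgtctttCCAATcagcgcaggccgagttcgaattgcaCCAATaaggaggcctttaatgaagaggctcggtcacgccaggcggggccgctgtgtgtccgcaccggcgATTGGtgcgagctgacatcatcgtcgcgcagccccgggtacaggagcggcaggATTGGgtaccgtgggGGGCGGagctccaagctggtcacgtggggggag

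Windows of RefSeq were matched for 7 of the 8 genes. By the GENCODE gene positions given below, the Klf7 window lies inside the gene and the Klf3 window partly inside it. The GC box, the element that Krüppel-like and SP factors bind, was in 6 of the 7 windows and in 28.5% of 32851 promoter windows of the same length. The MEF2 site, known as the element through which the kinase ERK5 acts on the Klf2 promoter, was found in Klf2 only of the 7, with its first base 118 bases before the start, and in 2.60% of all windows. Klf6 held 4 CCAAT boxes, and this element was in 3 of the 7 windows and in 31.01% of all. The CACCC box (CACCC on either strand) was in 3 of the 7 windows, those of Klf3, Klf7 and Klf9, and in 47.8% of all. The cyclic AMP response element TGACGTCA and the CArG box were in 0 of the 7, against 1.14% and 1.30% of all windows, and the shorter TGACG was in 4 of the 7 and in 14.8% of all. These matches describe letters in a window and are not measured binding sites.

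Klf2, Klf4 and Klf6 had by far the widest spread of the 8 genes, and in each of them every mutant library lay between the wild-type pairs. Klf2 (ENSMUSG00000055148.7, chromosome 8, 72319033 to 72321656, + strand, GRCm38) had 7678, 19300.3 and 7090.5 normalized counts in mutant 1 to 3, against 245, 1247, 29157 and 29629 in wild-type 1 to 4. Mutant 2 was the highest mutant library, 2.51 times mutant 1, and wild-type 2 was 5.09 times wild-type 1. The highest library was 121 times the lowest.

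Klf4 (ENSMUSG00000003032.8, chromosome 4, 55527143 to 55532466, − strand) had 664, 1710.0 and 750.4 normalized counts in mutant 1 to 3, against 14.2, 56.1, 2684 and 3799 in wild-type 1 to 4. Its values in wild-type 1 and 2 rest on 13 and 54 reads. Mutant 2 was again the highest mutant library, and no mutant library overlapped either wild-type pair. Klf6 (ENSMUSG00000000078.7, chromosome 13, 5861482 to 5870394, + strand) had 8279, 16912 and 5944 normalized counts in mutant 1 to 3, against 1912, 3348, 30823.5 and 29840.3 in wild-type 1 to 4. Its libraries kept the pattern of the other two genes over a narrower range, with the highest 16.1 times the lowest. Among 16047 genes ranked by the SD of log2 values over the 7 libraries, Klf4 was 12th, Klf2 21st and Klf6 247th, while Klf3 was 15727th.

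**Figure D1:**
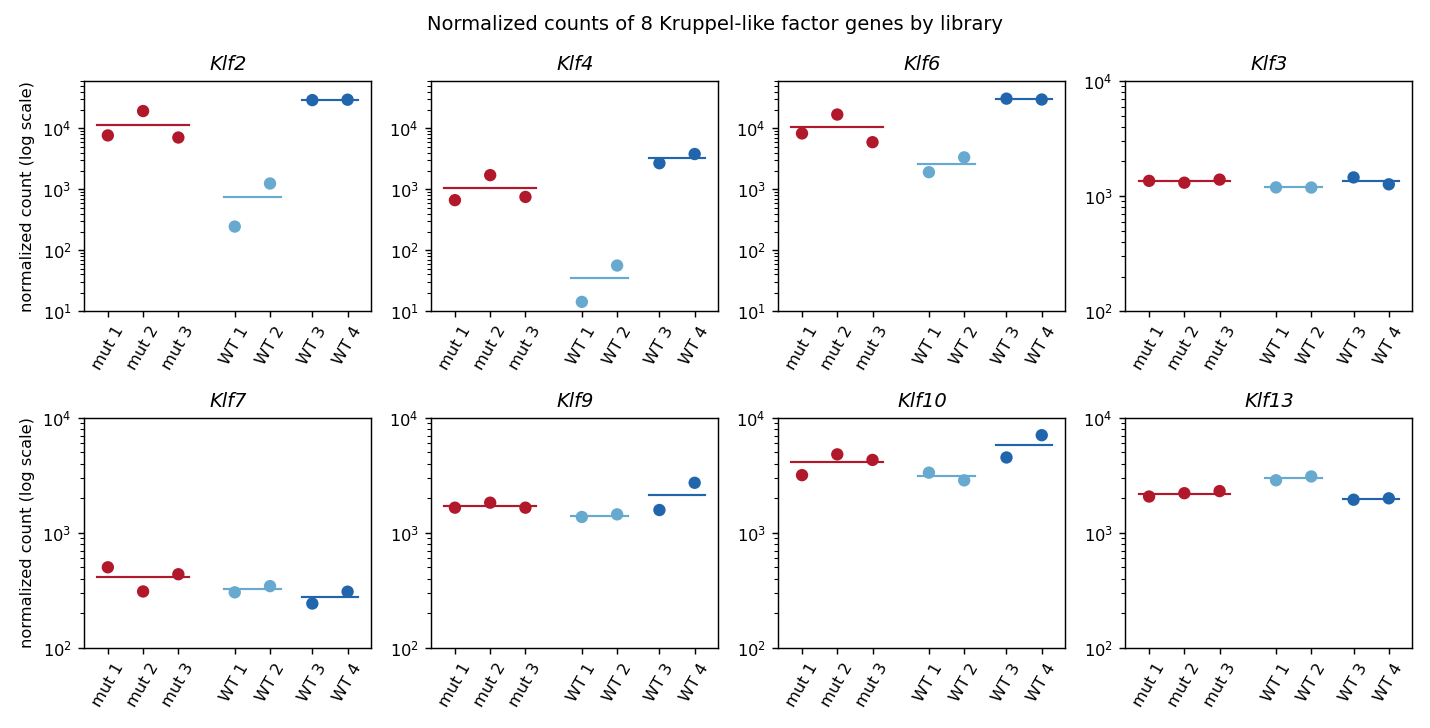
Normalized counts (log scale) of the 8 genes in mutant 1 to 3 (red), wild-type 1 and 2 (light blue) and wild-type 3 and 4 (dark blue); points are libraries and lines are the arithmetic means of each set. The mutant libraries of Klf2, Klf4 and Klf6 lie between the wild-type pairs, and those of Klf13 lie between them in the opposite order.

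Against all 4 wild-type libraries, none of the 8 genes passed the test, and mutant and wild-type libraries overlapped in all 8 (they did not overlap in 9.57% of all genes). Limma called 0 of 8 genes and 0 of 16047 genes in all (0%), with 0 of the 8 and 1365 of all genes at an unadjusted p under 0.05; edgeR called 0 genes, with 1639 unadjusted, and DESeq2 called 107 (0.667%), none of them among the 8. Other fits did call members. With the length slope as a covariate, added after seeing the data, Klf2 (log2 3.86), Klf4 (4.56) and Klf6 (1.75) passed (limma adjusted p = 0.0192, 0.0125 and 0.00881). That slope is itself computed from these expression values, and it sets the wild-type pairs far apart. Among the mutant libraries it was highest in mutant 2, as Klf2, Klf4 and Klf6 were. These calls are therefore no independent evidence of a rise. In a fit of 3 groups, with the wild-type pairs apart, Klf4 passed (log2 1.63, limma adjusted p = 0.0344). That fit takes the gap between the wild-type pairs out of the error, so its p covers only the spread within the groups. It does not show a rise over wild-type libraries in general. In the limma fit without these changes, Klf4 had a log2 difference of 1.63 (SE 1.86), Klf2 of 1.33 (SE 1.61) and Klf6 of 0.10 (SE 1.012), with limma adjusted p of 0.660, 0.676 and 0.962. These differences of mean log2 values were positive, while the arithmetic mean of normalized counts was lower in the mutant libraries. Klf2 averaged 11356 ± 6886 in mutant and 15069 ± 16546 in wild-type libraries (SD, n = 3 and 4). With edgeR on recovered reads the log2 differences were -0.42 for Klf2, -0.67 for Klf4 and -0.68 for Klf6. The sign of the pooled comparison therefore turned with the scale on which the wild-type pairs were averaged, and the SD among wild-type libraries exceeded the difference on both scales.

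Against wild-type 1 and 2, Klf2 and Klf4 rose in the mutant libraries. Klf4 was 32.2-fold higher (log2 5.01, SE 0.54, limma adjusted p = 0.0158) and Klf2 18.4-fold higher (log2 4.199, SE 0.61, limma adjusted p = 0.0343), on the log2(normalized count + 1) scale, which understates the change of low values such as those of Klf4. Limma called 2 of the 8 genes, against 0.318% of 16047 genes, and both were higher (0.237% of all genes). Klf6 had a log2 difference of 1.89 (SE 0.39) that did not pass (limma adjusted p = 0.105), although all mutant libraries were above both wild-type ones. Libraries did not overlap in 6 of the 8 genes, 5 higher (background 13.9%) and 1 lower (background 12.4%). With wild-type 1 left out, Klf2 had a log2 difference of 3.03 (limma adjusted p = 0.330) and Klf4 of 4.06 (limma adjusted p = 0.139). That fit sets the mutant libraries against wild-type 2 alone, which is assumed to vary as they do, and with wild-type 1 alone both genes passed. Without mutant 2, Klf6 also passed (log2 1.47, limma adjusted p = 6.63e-05), and likewise without mutant 3 (log2 2.23, limma adjusted p = 0.00256). With edgeR, which called 0.131% of all genes, Klf4 passed (adjusted p = 0.0410) and Klf2 did not (adjusted p = 0.112).

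Against wild-type 3 and 4, Klf2, Klf4 and Klf6 fell in the mutant libraries. Klf4 was 3.37-fold lower (log2 -1.75, SE 0.37, limma adjusted p = 0.00804), Klf6 3.22-fold lower (log2 -1.69, SE 0.37, limma adjusted p = 0.00871) and Klf2 2.89-fold lower (log2 -1.53, SE 0.38, limma adjusted p = 0.0140). The call of Klf2 was lost with DESeq2 (adjusted p = 0.0670) and in the fit of 3 groups (limma adjusted p = 0.0537). Limma called 3 of the 8 genes, a share near the 42.6% of all genes called in this comparison (22.8% lower). Libraries did not overlap in 5 of the 8 genes, 2 higher and 3 lower, where each direction held 33.8% of all genes. With 1 wild-type library left, assumed to vary like the mutant ones, limma called 0 of the 8 without wild-type 4 and 1 without wild-type 3, Klf4 (log2 -2.001, adjusted p = 0.0448). The log2 differences of Klf6 were then -1.71 and -1.67, close to that with both libraries (adjusted p = 0.0584 and 0.0641). Without mutant 1, Klf2 had an adjusted p of 0.0501. Without mutant 2, which was the closest of the mutant libraries to wild-type 3 and 4 in all 3 genes, limma called 5, adding Klf7 (log2 0.77, adjusted p = 0.00749) and Klf10 (log2 -0.61, adjusted p = 0.0279). With a library left out, the fits of this comparison called from 1483 to 8760 of all genes. The counts of members called are therefore not a result apart from that wide range.

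**Figure D2:**
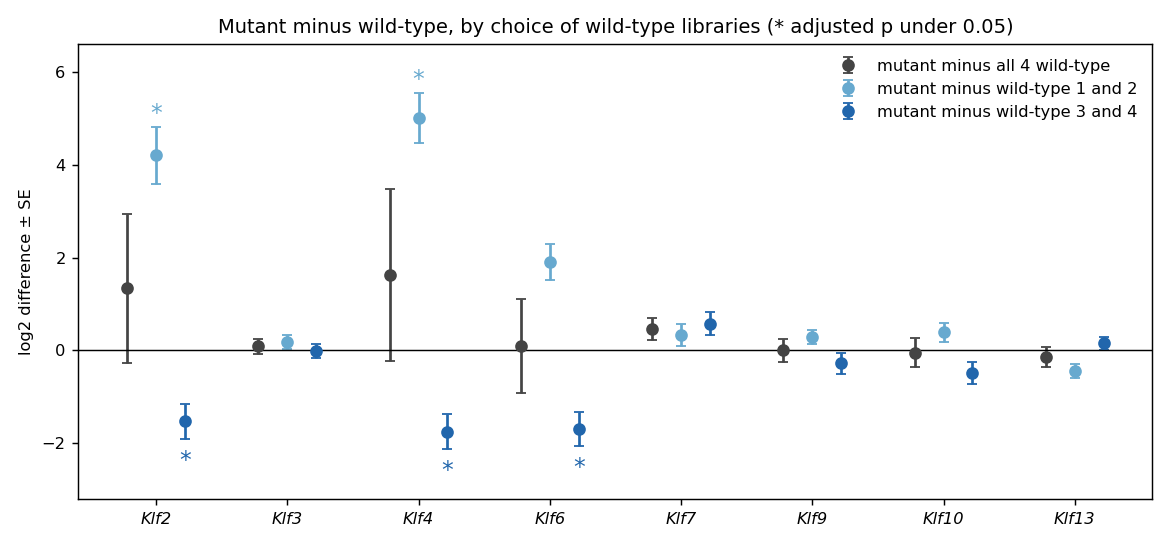
Log2 differences (mutant minus wild-type) of the 8 genes with their standard errors, against all 4 wild-type libraries (grey), wild-type 1 and 2 (light blue) and wild-type 3 and 4 (dark blue); asterisks mark a limma adjusted p under 0.05. Klf2, Klf4 and Klf6 lie above 0 against wild-type 1 and 2 and below 0 against wild-type 3 and 4.

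The same 3 genes differed most between the wild-type pairs. In wild-type 3 and 4 against wild-type 1 and 2, Klf4 had a log2 difference of 6.76 (SE 0.48), Klf2 of 5.73 (SE 0.55) and Klf6 of 3.58 (SE 0.21), with limma adjusted p of 4.31e-06, 1.90e-05 and 1.79e-06. Klf10 and Klf9 were also higher, and Klf13 was lower. Limma called 6 of the 8 genes, against 54.9% of all genes, with 5 higher (29.6% of all genes) and 1 lower (25.3%). Libraries of the pairs did not overlap in 7 of the 8, against 77.2% of all genes. On the log2 scale the mean of the mutant libraries lay 73.3% of the way from wild-type 1 and 2 up to wild-type 3 and 4 in Klf2, 74.1% in Klf4 and 52.9% in Klf6. The pattern of all mutant libraries above wild-type 1 and 2 and below wild-type 3 and 4 was found in 3 of the 8 genes and in 4.07% of all genes. It was called on both sides by limma in 8 genes (0.0499%), among them Klf2, Klf4, Egr3, Egr4, Rhob, Ern1 and Pik3cd. Egr3 and Egr4 are growth factor-induced zinc finger factors, Rhob a small GTPase, Ern1 the stress sensor IRE1 and Pik3cd a catalytic subunit of PI3 kinase. The values of Egr3 in wild-type 1 and 2 rest on 1 read in each library, and those of Egr4 on 2 reads in each. The mutant effect within the title series (mutant 1 and 2 against wild-type 3 and 4) differed from that outside it (mutant 3 against wild-type 1 and 2) in 3 of the 8 genes, Klf2, Klf4 and Klf6, and in 8.03% of all genes (limma interaction, adjusted p under 0.05).

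Klf3, Klf7, Klf9, Klf10 and Klf13 varied far less. Klf3 (ENSMUSG00000029178.14, chromosome 5, 64803388 to 64832901, + strand) had 1356, 1307 and 1391 normalized counts in mutant 1 to 3, against 1189.8, 1186, 1453 and 1266 in wild-type 1 to 4. It was the steadiest of the 8, with mutant libraries inside the range of the wild-type ones and the highest library 1.22 times the lowest. Its log2 differences were 0.09 (SE 0.16) against all wild-type libraries, 0.19 (SE 0.15) against wild-type 1 and 2 and -0.01 (SE 0.15) against wild-type 3 and 4, none of which passed.

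Klf7 (ENSMUSG00000025959.13, chromosome 1, 64029447 to 64122282, − strand) had 501, 309 and 436 normalized counts in mutant 1 to 3, against 304, 344, 243 and 308 in wild-type 1 to 4. Mutant 1 and 3 were above every wild-type library and mutant 2 was not. It had the largest of the log2 differences among these 5 genes over all libraries, 0.45 (SE 0.24, limma adjusted p = 0.538), and 0.57 (SE 0.25, limma adjusted p = 0.0972) against wild-type 3 and 4. Both missed the threshold.

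Klf13 (ENSMUSG00000052040.10, chromosome 7, 63886351 to 63938915, − strand) ran opposite to Klf2, Klf4 and Klf6. It had 2066, 2208 and 2303 normalized counts in mutant 1 to 3, against 2861, 3089, 1939 and 1993 in wild-type 1 to 4. All mutant libraries were below wild-type 1 and 2 and above wild-type 3 and 4, a pattern shared by 1 of the 8 genes and 3.88% of all genes. Wild-type 3 and 4 were lower than wild-type 1 and 2 by a log2 difference of -0.60 (SE 0.10, limma adjusted p = 0.000661). The mutant differences of -0.44 (SE 0.15) against wild-type 1 and 2 and 0.16 (SE 0.14) against wild-type 3 and 4 did not pass (limma adjusted p = 0.357 and 0.395).

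Klf10 (ENSMUSG00000037465.10, chromosome 15, 38291463 to 38300706, − strand) had 3169, 4804 and 4299 normalized counts in mutant 1 to 3, against 3331, 2856, 4514 and 7051 in wild-type 1 to 4. Wild-type 4 was the highest library, and the mutant libraries overlapped both pairs. The pairs differed by a log2 of 0.87 (SE 0.18, limma adjusted p = 0.00258, and 0.0818 without wild-type 2, which leaves 1 library on that side), whereas the mutant differences of 0.39 (SE 0.20) against wild-type 1 and 2 and -0.49 (SE 0.24) against wild-type 3 and 4 did not pass.

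Klf9 (ENSMUSG00000033863.2, chromosome 19, 23141226 to 23168134, + strand) had 1654, 1827 and 1653 normalized counts in mutant 1 to 3, against 1372, 1446, 1577 and 2719 in wild-type 1 to 4. Wild-type 4 stood well above the other 6 libraries. Mutant and all wild-type libraries averaged 1711 ± 100.3 and 1779 ± 633 (SD, n = 3 and 4), a log2 difference of 0.00 (SE 0.25) that turned to -0.01 with TMM scaling. The call between the wild-type pairs (log2 0.56, SE 0.21, limma adjusted p = 0.0450) was lost without wild-type 4, where the log2 difference was 0.16 (limma adjusted p = 0.408), with 1 library left on that side. With wild-type 1 or 2 alone on the other side the difference stayed near 0.56 (log2 0.59 and 0.52) and did not pass (limma adjusted p = 0.208 and 0.263). Nor did it pass with DESeq2 (adjusted p = 0.204) or in the fit of 3 groups (limma adjusted p = 0.0670).

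Levels can be compared between genes only per length, as FPKM (fragments per kilobase of transcript, scaled to library size) summed over a gene's transcripts. In the mutant libraries Klf2 averaged 216 ± 133 FPKM and Klf6 178 ± 97.4 FPKM, and these did not differ beyond their spread (SD, n = 3). Klf10 (45.3 ± 9.87 FPKM) and Klf13 (43.0 ± 5.12 FPKM) came next, with Klf3 (33.3 ± 4.12 FPKM) after them. Klf10 lay within its spread of both, and in mutant 1 Klf3 (35.1 FPKM) was level with Klf10 (34.9 FPKM). The lowest were Klf9 (18.0 ± 1.83 FPKM), Klf4 (12.9 ± 7.15 FPKM) and Klf7 (6.93 ± 1.43 FPKM). The wide spread of Klf4 covered both neighbours, but within each mutant library Klf4 was above Klf7. They had 8.21, 21.1 and 9.26 against 7.20, 5.39 and 8.21 FPKM in mutant 1 to 3. Wild-type 3 and 4 had Klf2 at 574 and 585 FPKM, Klf6 at 468 in each and Klf4 at 33.6 and 50.1. The order was another one in wild-type 1 and 2, where Klf13 led with 54.9 and 61.3 FPKM, Klf2 had 3.45 and 22.6 FPKM, and Klf4 was last with 0.18 and 0.68 FPKM. The level of Klf13 rested mostly on a short transcript model, Klf13-204 of 487 bases, which held 72.1% to 77.3% of its FPKM in the mutant and 62.8% to 74.6% in the wild-type libraries.

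**Figure D3:**
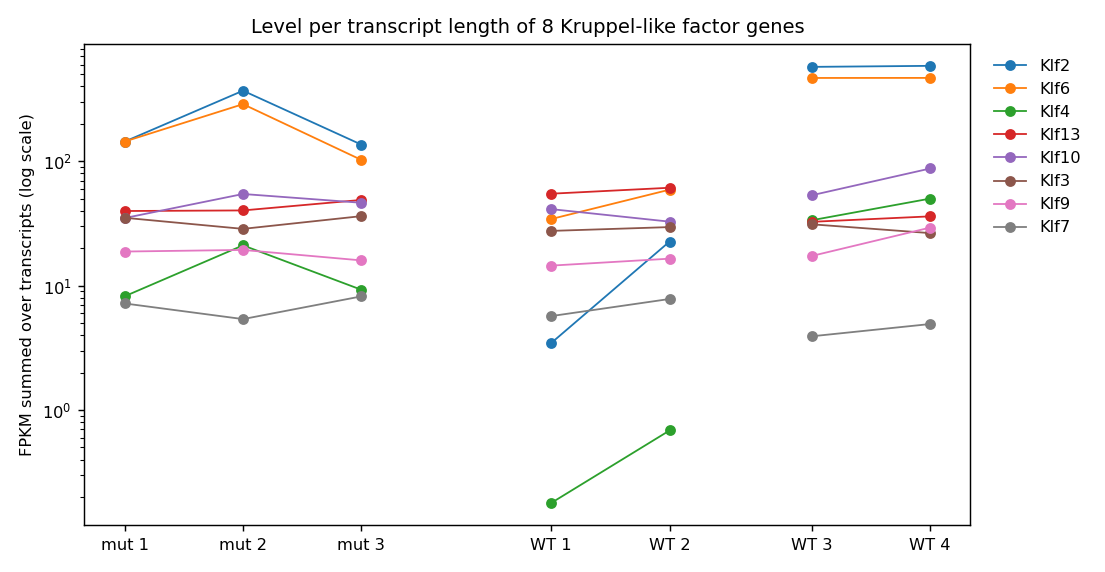
FPKM summed over transcripts (log scale) of the 8 genes in each library; points are libraries, and lines only join the values of a gene within a set of libraries. Klf2 and Klf6 are the highest of the 8 in the mutant libraries and in wild-type 3 and 4, while Klf4 spans from 0.18 FPKM in wild-type 1 to 50.1 FPKM in wild-type 4.

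The FPKM table listed 31 transcripts of the 8 genes, of which 18 passed its filter, and limma called 0 of these and 0 of 30156 transcripts in all (0%) between mutant and all wild-type libraries, with 2077 at an unadjusted p under 0.05. Klf2 had a single transcript. The protein-coding Klf6-201 held 33.5%, 35.9% and 36.1% of the gene's FPKM in mutant 1 to 3, against 32.8%, 33.5%, 43.7% and 44.4% in wild-type 1 to 4. The mutant shares were near those of wild-type 1 and 2 and below those of wild-type 3 and 4. Klf6-203, annotated as a target of nonsense-mediated decay, held 28.3% to 28.7% in the mutant libraries, against 29.97% and 37.5% in wild-type 1 and 2, beside 14.97% and 19.2% in wild-type 3 and 4. In Klf3, the retained-intron transcript Klf3-208 held 47.9% to 54.3% of the gene's FPKM in the mutant libraries, against 51.1% and 53.7% in wild-type 1 and 2, beside 40.2% and 46.4% in wild-type 3 and 4. Shares of transcripts were not tested, and unstranded reads within introns cannot be assigned to a transcript with certainty.

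**Figure D4:**
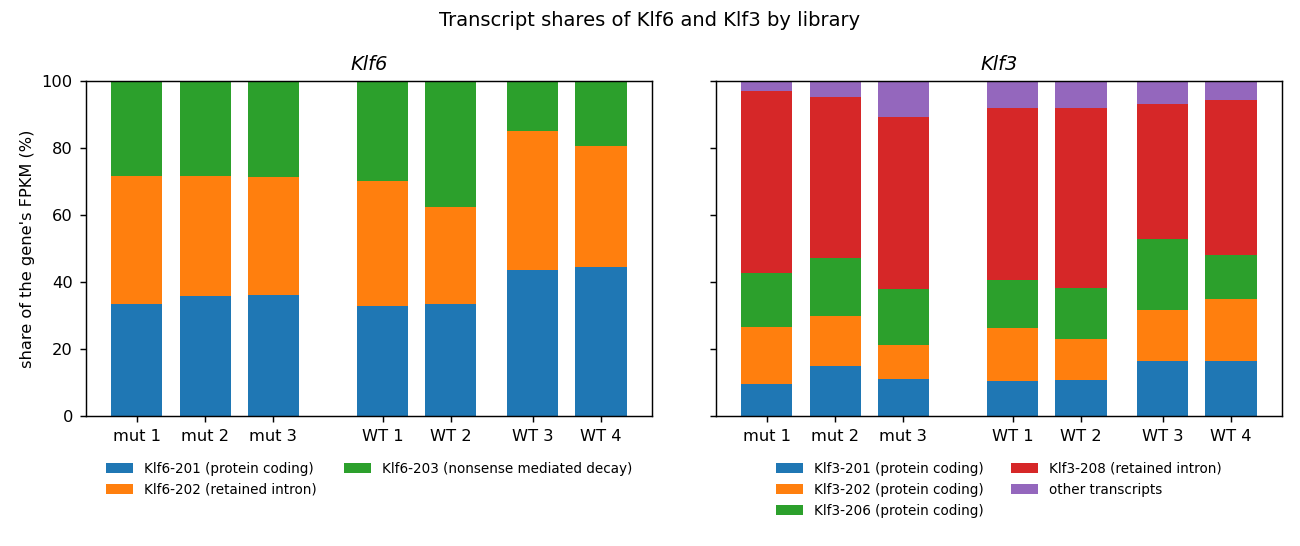
Share of the gene's FPKM (%) held by each transcript of Klf6 (left) and Klf3 (right) in the 7 libraries, with stacked bars adding to 100%. Klf6-201 takes 33.5% to 36.1% in the mutant libraries, 32.8% and 33.5% in wild-type 1 and 2, beside 43.7% and 44.4% in wild-type 3 and 4.

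Immediate early genes, which are transcribed within minutes of a stimulus, followed Klf2, Klf4 and Klf6 over the libraries. Summed over the 24 genes of the list, they had 344094, 592557 and 277587 normalized counts in mutant 1 to 3, against 61961, 148917, 784132 and 778971 in wild-type 1 to 4. That ranks the libraries of the mutant group and of wild-type 1 and 2 as Klf2 and Klf6 do, with mutant 2 highest of the mutant libraries and wild-type 1 lowest of all. In 16 of the 24 genes every mutant library lay above wild-type 1 and 2 and below wild-type 3 and 4, a pattern found in 4.07% of all genes tested. Against wild-type 1 and 2 limma called 3 of 24 higher (0.237% of all genes) and 0 lower, with a median log2 difference of 1.89, where the median of all genes tested was 0.00. Egr3 had a log2 difference of 4.09 (SE 0.65) and Fos, a subunit of AP-1, of 3.28 (SE 0.52), and Rhob of 1.75 (SE 0.28), each with a limma adjusted p of 0.0411. The difference of Egr3 rests on 1 read in each of wild-type 1 and 2, so its size depends on the pseudocount. Against wild-type 3 and 4 limma called 14 lower (22.8% of all genes) and 0 higher (median -1.11, all genes 0.00), with -3.97 for the nuclear receptor Nr4a1 and -2.71 for Egr2. In wild-type 3 and 4 against wild-type 1 and 2 it called 21 higher (29.6% of all genes) and 0 lower (median 3.28, all genes 0.01). Fos had 56786, 134259 and 58041 normalized counts in mutant 1 to 3, against 4007, 15386, 135480.0 and 147158 in wild-type 1 to 4, and every mutant library lay between the pairs. What part the conditions behind this list have in the values of Klf2, Klf4 and Klf6 was not tested.

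**Figure D5:**
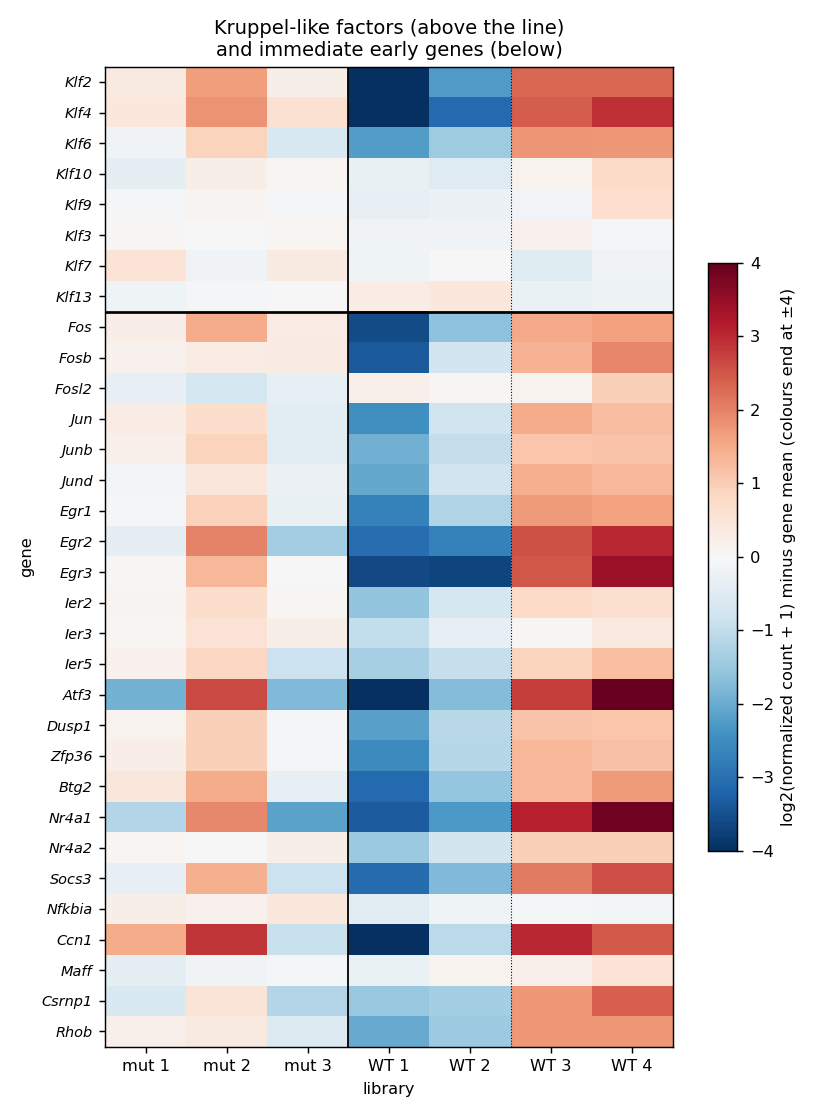
Log2(normalized count + 1) minus the gene's mean over the 7 libraries, as colours, for the 8 Krüppel-like factor genes (above the line) and 24 immediate early genes (below it), with mutant libraries on the left. Klf2, Klf4 and Klf6 share with most of the lower genes the lowest values in wild-type 1 and 2 and the highest in wild-type 3 and 4.

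The genes whose centred log2 values were nearest to each of the 8, by root mean square difference over 7 libraries and outside the family, included several of the same kind. Nearest to Klf2 were Hes1, a Notch target and repressor (0.41), and Fos (0.61), and nearest to Klf4 were Egr3 (0.68) and Egr4 (0.73). Egr3 and Egr4 were near the floor in wild-type 1 and 2, with 1 and 2 reads in each library. Klf6 was closest to Nfkbid (0.10) and Nfkbiz (0.19), which encode nuclear IκB proteins. Nfkbid had 1259, 2810.1 and 916 normalized counts in mutant 1 to 3, against 331, 557, 5383 and 5640.4 in wild-type 1 to 4, so its libraries stood in the order of those of Klf6 in the mutant group and in wild-type 1 and 2. Within the family, Klf2 and Klf4 were 0.46 apart, Klf9 and Klf10 0.20 apart, and Klf4 and Klf13 2.98 apart. For the flatter genes the nearest were Rock1 and Cln3 (Klf3), Lsm14b and H1f2 (Klf7), Lama5 and Zfp622 (Klf9), Bicdl1 and Lmbr1l (Klf10), and Htra2 and Smc2 (Klf13), at 0.05 to 0.13. Over so few libraries a flat gene is close to many others.

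Of the other Krüppel-like and SP factors, which bind the same elements, 11 were tested, and 0 of 11 had all mutant libraries between the pairs. Over all genes the shares were 4.07% in the order of Klf2 and 3.88% in the opposite order. All mutant libraries were below wild-type 3 and 4 in 8 of 11 (33.8% of all genes). Limma called 0 of 11 against all wild-type libraries (0% of all genes) and 0 of 11 against wild-type 1 and 2 (0.318%). Against wild-type 3 and 4 it called 6 lower (22.8% of all genes) and 0 higher: Klf16 (log2 -1.49), Sp2 (-1.42), Klf11 (-1.39), Sp4 (-1.18), Klf8 (-1.17) and Sp1 (-1.17). In wild-type 3 and 4 against wild-type 1 and 2 it called 8 higher (29.6% of all genes), these 6 with Klf12 and Sp3. Sp1, the general activator at GC boxes, had 481, 498 and 576 normalized counts in mutant 1 to 3, against 599.8, 653, 1167 and 1163 in wild-type 1 to 4, so the mutant libraries were below all wild-type ones (log2 -0.72, SE 0.29, limma adjusted p = 0.538 over all libraries). Klf1, the erythroid factor, Klf5 and Klf15 were not called in any of these comparisons, with log2 differences of -0.68, 0.02 and 0.65 against all wild-type libraries.

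Of 16 genes that act upstream of Klf2 and Klf4 in endothelium, 1 had all mutant libraries above wild-type 1 and 2 and below wild-type 3 and 4, as Klf2 and Klf4 did (4.07% of all genes). The list holds the kinases of the MEKK–MEK5–ERK5 route, the MEF2 factors they activate, class IIa histone deacetylases that restrain MEF2, the FoxO factors and the CCM proteins. Foxo1 was the gene with that pattern, at 811, 947 and 906 normalized counts in mutant 1 to 3, against 640.2, 751, 1122 and 1211 in wild-type 1 to 4, and neither mutant difference passed (limma adjusted p = 0.568 and 0.0737). Limma called 0 of 16 against wild-type 1 and 2 (0.318% of all genes; median log2 -0.02), and against wild-type 3 and 4 it called 1 higher (19.7% of all genes) and 8 lower (22.8%; median -0.49). Mef2d had 1208, 1553 and 1150.3 normalized counts in mutant 1 to 3, against 1263, 1512, 3444 and 3572 in wild-type 1 to 4. Its mutant libraries overlapped wild-type 1 and 2, where those of Klf2 were all higher. Hdac7, Map3k3 and Hdac5 had log2 differences of -1.70, -1.60 and -1.57 against wild-type 3 and 4 and of -0.09, 0.14 and 0.06 against wild-type 1 and 2.

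Cofactors of the family, such as CtBP, SIN3 and p300, were listed with the ubiquitin ligase genes Wwp1 and Fbxw7. The list gave 0 of 14 calls against wild-type 1 and 2 (0.318% of all genes). Against wild-type 3 and 4 it gave 4 higher (19.7%) and 6 lower (22.8%). Among the lower were Ctbp1 at -1.52, Ep300 at -1.21 and Fbxw7 at -1.14 on the log2 scale. Of 14 genes described elsewhere as targets of these factors, limma called 0 against wild-type 1 and 2 (0.318% of all genes). Against wild-type 3 and 4 it called 1 higher and 5 lower, a share near the 42.6% of all genes. The migration receptor S1pr1, a target of Klf2 in T cells, had 798, 879 and 708 normalized counts in mutant 1 to 3, against 462, 525, 1117 and 1018 in wild-type 1 to 4. All mutant libraries lay between the pairs, and neither mutant difference passed (log2 0.68 and -0.43, limma adjusted p = 0.227 and 0.0682). S1pr1 was the only gene of the 14 with this pattern (4.07% of all genes), and 1 other lay between the pairs in the opposite order (3.88% of all genes). Thbd, the anticoagulant receptor that Klf2 activates in endothelium, had a log2 difference of -2.04 against wild-type 3 and 4 (limma adjusted p = 0.00181) and of -0.99 against wild-type 1 and 2 (adjusted p = 0.357), and was below all wild-type libraries in each mutant library. Ccl5, the Klf13 target, was the 1 gene of this list that was higher against wild-type 3 and 4 (log2 1.66, limma adjusted p = 0.00733). Its values there rest on 23 and 34 reads in wild-type 3 and 4. Against wild-type 1 and 2 Ccl5 had a log2 difference of 0.17 (limma adjusted p = 0.924), and the libraries overlapped.

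Klf9 belongs to the genes induced by glucocorticoids, and of 7 others of that kind limma called 0 against wild-type 1 and 2 (0.318% of all genes). Against wild-type 3 and 4 it called 4 lower (22.8% of all genes), with log2 differences of -1.81 (Per1), -1.41 (Ddit4), -1.34 (Fkbp5) and -1.28 (Zbtb16). Between the wild-type pairs it called 6 of 7 higher in wild-type 3 and 4 (29.6% of all genes). All mutant libraries lay above wild-type 1 and 2 and below wild-type 3 and 4 in 3 of 7, Sgk1, Dusp1 and Ddit4 (4.07% of all genes). Dusp1, a phosphatase of MAP kinases, is in both this list and that of immediate early genes.

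Markers of other cell types were present at different levels in these libraries. Summed over 11 neutrophil and monocyte markers, normalized counts were 22201.5 to 64979 in the mutant and 54769.7 to 90389 in the wild-type libraries. Against wild-type 3 and 4 limma called 4 of them lower, Mpo, Ly6c2, Ngp and Camp (22.8% of all genes), and 1 higher, Prtn3 (19.7%). It called 0 of 11 against wild-type 1 and 2 (0.318% of all genes). The 5 megakaryocyte markers measured summed to 4753 to 10189.8 in the mutant libraries, against 13932 and 18404 in wild-type 1 and 2, beside 9643 and 5559.8 in wild-type 3 and 4. By gene they went different ways. Limma called Itga2b lower against both pairs (log2 -1.15 and -1.275, adjusted p = 0.0411 and 0.00580). Ppbp and Gp9 were higher against wild-type 3 and 4 (log2 1.22 and 0.74, limma adjusted p = 0.0187 and 0.0470). Pf4 and Gp1bb were called against neither pair. The 6 endothelial markers measured summed to 2321 to 2742 in the mutant libraries, against 2029 and 1759 in wild-type 1 and 2, beside 3401 and 3578 in wild-type 3 and 4, so that the mutant sums lay between the pairs. By gene this held for 1 of 6, Kdr, while Emcn was highest in the mutant libraries (1017 to 1518 normalized counts, against 993 and 859 in wild-type 1 and 2, beside 640 and 669 in wild-type 3 and 4). Stromal markers (4 measured) summed to 85.7 to 128 in the mutant libraries, against 91.8 and 102 in wild-type 1 and 2, beside 419 and 320.1 in wild-type 3 and 4. Erythroid markers (8) summed to 2083 to 3185 in the mutant and 2339 to 4483 in the wild-type libraries, B cell markers (5 measured) to 1372 to 1927 and 945 to 1676, T and NK cell markers (4 measured) to 1200.1 to 1784 and 875 to 2509.9, and mast cell and basophil markers (4 measured) to 58.9 to 146 and 87.3 to 169. The defining markers Cd3e, Cd3g, Cd8a, Pax5, Ms4a1, Cdh5 and Lepr were not analysed here. The part of these markers in the values of the 8 genes was not tested.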

How the data were processed

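RNA was made into cDNA with SMART-Seq v4 and into unstranded libraries, per the labels' protocols. The submitters' processing notes name STAR 2.7.3a, DESeq2 1.12.4, HTSeq 0.6.1, FastQC 0.11.7 and Cufflinks 2.2.1, with GRCm38 as the build and no options. The gene signal that the authors deposited is a normalized count, per the name of its table. All of its values (100%) equalled whole reads times 1 step per library, to within 0.01 reads, which gave back the read counts. For 66660 transcripts the authors deposited FPKM. Testing used limma 3.58.1 (R 4.3.3) with a variance trend and two-sided p, on log2 of the normalized count plus 1, for the 16047 genes that reached 10 in 3 or more libraries, using only the libraries of each comparison and Benjamini-Hochberg adjustment over all genes (threshold 0.05). The 30156 transcripts that reached 1 FPKM in 3 or more libraries were tested on log2(FPKM + 1).

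Alternatives were a pseudocount of 10 (0.1 for FPKM), no filter, TMM scaling, edgeR 4.0.16 and DESeq2 1.42.0 on recovered reads, a fit of 3 groups over all 7 libraries, summed FPKM, each library left out, and, for all libraries, the length slope or the title series as covariates and fits within or outside that series. The limma fit was also run on simulated reads with known changes. When mutant libraries were tested, those reads held no difference between the wild-type pairs. The run therefore cannot show how the fits handle such a difference. Positions and lengths came from GENCODE vM21 of GRCm38 and promoter windows from RefSeq. The members and gene lists were chosen with earlier results of these data known. Named genes were all 8, the other family members that passed the filter, up to 4 called genes of largest difference per list, defining markers, and the 2 nearest genes of each member; S1pr1, Fos, Sp1, Foxo1, Sgk1, Dusp1, Kdr, Emcn and genes called on both sides were given in more detail after their values were seen, and 1 gene of the last kind is not reported here.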

Additional observations from a re-analysis of the deposited data

Results flagged for a closer look

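The mutant effect on Klf2, Klf4 and Klf6 differed within and outside the title series, as did the wild-type pair it was set against. Within it (mutant 1 and 2 against wild-type 3 and 4) the log2 differences were -1.27 for Klf2, -1.58 for Klf4 and -1.36 for Klf6. Outside it (mutant 3 alone against wild-type 1 and 2) they were 3.68, 4.67 and 1.23, where mutant 3 is assumed to vary like the other libraries. The difference of these effects, tested with limma as an interaction over all 7 libraries and chosen after seeing the data, was -4.95 for Klf2 (adjusted p = 0.0108), -6.25 for Klf4 (adjusted p = 0.00277) and -2.59 for Klf6 (adjusted p = 0.0104). Limma called 8.03% of all genes in this test. Of the other family members, Sp1 had -1.13 (limma adjusted p = 0.0182) and Sp2 -1.11 (limma adjusted p = 0.0414). By construction, the tested difference holds the gap between the wild-type pairs with its sign turned, so it is not a result apart from that gap. Among the wild-type libraries the title series and the pair are the same split, so they cannot be told apart. Only 1 mutant library lies outside the series.

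Klf9 had 2719 normalized counts in wild-type 4, far from the 1372 to 1577 of the other wild-type libraries. Chance flags about 1 in 20 groups in this way.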

How the results depend on the processing

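No paired analysis was possible because the labels share no replicate numbers between the groups. Of 424 values of the 8 genes under alternatives, 356 kept direction and side of the threshold, 21 lost the call, 12 gained it and 35 changed sign. Against all wild-type libraries limma called 2636 genes in the fit of 3 groups, 127 with the length slope, 3597 with the title series, 6010 within it and 1022 outside it, and DESeq2 called 107. Of the 8 genes it called 1 in the fit of 3 groups (Klf4), 3 with the length slope, 3 within and 3 outside the series (Klf2, Klf4 and Klf6 each time). The signs there turned with edgeR and DESeq2 in Klf2 (-0.42, -0.40), Klf4 (-0.67, -0.64), Klf6 (-0.68, -0.66) and Klf9 (-0.065, -0.049). Within the title series they turned in Klf2 (-1.27), Klf3 (-0.026), Klf4 (-1.58), Klf6 (-1.36), Klf9 (-0.25) and Klf13 (0.12). Outside it Klf10 turned (0.48), as with the length slope (0.34). With the series as covariate Klf6 (-0.32) and Klf9 (-0.059) turned, and Klf9 also with TMM (-0.015) and summed FPKM (-0.053). With a library left out, Klf2 ranged from -0.012 to 2.29, Klf6 from -0.63 to 0.71, Klf9 from -0.10 to 0.22 and Klf10 from -0.23 to 0.20. Against wild-type 1 and 2 edgeR called 21 genes (1 of the 8), DESeq2 281 and summed FPKM 1 (0 of the 8); leaving out a library gave 0 to 769 genes and 0 to 3 of the 8. Against wild-type 3 and 4 it gave 1483 to 8760 genes and 0 to 5 of the 8; Klf3 turned with DESeq2 (0.00094) and FPKM (0.20) and ranged from -0.11 to 0.094, and Klf9 from -0.67 to 0.12 with a library left out. Klf4 in wild-type 1 rests on 13 reads. Apart from the arithmetic of averaging and the smaller number of libraries, the cause was not tested.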

Other observations

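Wild-type 4 exceeded wild-type 3 in Klf11, Per1 and Ddit4, although the pair was close in Klf2 and Klf6. Klf11, another Krüppel-like factor, had 476, 989 and 638 normalized counts in mutant 1 to 3, against 559, 358, 1028 and 2985 in wild-type 1 to 4. Per1, a clock gene that glucocorticoids induce, had 1413 in wild-type 4 and 796 in wild-type 3, and Ddit4, an inhibitor of mTOR signalling, had 577 and 341. These genes were picked after their values were seen, and no test was made. Zbtb16 went the other way, with 167 in wild-type 4 and 300.3 in wild-type 3.

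Pik3cd, a gene called above wild-type 1 and 2 and below wild-type 3 and 4 together with Klf2 and Klf4, had little spread within groups, with 3818, 3644 and 4147 normalized counts in mutant 1 to 3, against 1958, 1873, 10129 and 10847 in wild-type 1 to 4. Ern1 had 1381, 1054 and 1338 in mutant 1 to 3, against 476, 572, 3495 and 1715.5 in wild-type 1 to 4.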
